A study of Mus musculus with 98 samples.

Results

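The RANK, lymphotoxin and CD40 receptor axis, which matures the thymic medulla, was followed across the mouse thymic stroma as 9 genes chosen by name, and all 9 were found in the bulk count table of 39179 identifiers and in the 2 single-cell tables of 22231 and 20760 genes. Of these, 4 are receptors of the tumor necrosis factor (TNF) family (Tnfrsf11a, Ltbr, Cd40 and Tnfrsf1a), 1 is a ligand (Tnfsf11), 1 is a soluble decoy receptor (Tnfrsf11b) and 3 carry the signal inside the cell (Relb, Nfkb2 and Traf3). The bulk table lists them in that order as ENSMUSG00000026321, ENSMUSG00000030339, ENSMUSG00000017652, ENSMUSG00000030341, ENSMUSG00000022015, ENSMUSG00000063727, ENSMUSG00000002983, ENSMUSG00000025225 and ENSMUSG00000021277. The study sorted wild-type (WT) C57BL/6 thymi by flow cytometry into bulk RNA-seq libraries at birth (P0) and at 4 weeks, with 6 libraries in each of 14 groups. The epithelial groups were cTEC and mTEC (cortical and medullary thymic epithelial cells) at both ages and mTEChi and mTEClo at 4 weeks. The nonepithelial groups (NETS) were CD31+ endothelium, Ly51+gp38- mural cells, gp38+CD26+ capsular fibroblasts and gp38+CD26- fibroblasts enriched in the medulla, each at both ages. Droplet single-cell libraries covered WT NETS (Ter119-CD45-EpCAM- cells) at E12.5 (1 library), E13.5 (1), E16.5 (2), P0 (2) and 4 weeks (2), where the 2 embryonic libraries without a replicate were pools of thymi from more than 1 litter. A further 6 droplet libraries held all Ter119-CD45- stroma, TEC included and fixed with RNA Protect, from 3 newborn Tbx1+/- Crkl+/- mice (germline heterozygous for a Tbx1 lacZ allele and a Crkl null allele, so every cell type carried both) and 3 WT littermates.

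RANK, the protein of Tnfrsf11a, sits on medullary epithelial cells and their progenitors. Its ligand RANKL (Tnfsf11) comes from lymphoid cells of the thymus, lymphotoxin binds the receptor encoded by Ltbr, and the ligand of CD40 is carried by activated T cells. In unstimulated cells TRAF3 (Traf3) keeps the kinase NIK scarce, and ligand binding removes TRAF3, so that NIK drives the cleavage of the p100 protein of Nfkb2 to p52, which enters the nucleus with RelB (Relb). This noncanonical NF-kB pathway is needed for the medullary epithelium that expresses AIRE. Osteoprotegerin (OPG), the protein of Tnfrsf11b, captures RANKL outside the cell.

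Gene-level depth was 5785352 to 15852200 counts in 83 bulk libraries, and 1 library labelled gp38+CD26+ at 4 weeks with 25702 counts was left out, which leaves 5 in that group. Its markers went against its label, with cTEC markers at 24745 CPM and mesenchyme markers at 2685, against 3.82 to 149.5 and 58111 to 64899 in the 5 kept. Levels are given in CPM, a gene's count scaled to the same total of gene counts in every library. TEC marker genes (Epcam, Foxn1, Krt5, Krt8 and Cdh1) summed to medians of 3382 to 6970 CPM in the 6 epithelial groups and endothelial markers to 5253 and 5430 CPM in CD31+ cells. The age series held 36208 cells at median depths of 10005 to 14031 UMIs per library, and the newborn data 21451 cells at 2391 to 4686. Pairs of single-cell libraries shared at most 14 cell barcodes, and no pair shared more than 0.275% of the smaller library. The labels do not say which bulk or embryonic libraries came from separate animals, so p-values measure the spread between these samples, which may be technical. Fewer cells of a type and less RNA per cell cannot be told apart in sorted bulk samples. The study's methods describe depletion of CD45+ cells with magnetic beads before sorting for adult thymi only. If the thymi at 4 weeks were treated so, age and this step cannot be told apart in any comparison with younger thymi.

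TEC were first set against NETS. At P0 the receptors Tnfrsf11a and Cd40, the decoy Tnfrsf11b and the signal genes Relb, Nfkb2 and Traf3 were higher in TEC, with Tnfsf11 higher from a very low level, whereas the receptors Ltbr and Tnfrsf1a were higher in NETS. All 9 passed edgeR's quasi-likelihood test with Benjamini-Hochberg adjustment over 20417 genes, 7 higher and 2 lower, in a comparison in which 39.7% of all genes passed (24.9% higher and 14.7% lower). At 4 weeks 7 of the 9 passed, 5 higher and 2 lower, against 42.7% of all genes (29.8% and 12.9%), and Nfkb2 and Traf3 did not. The median log2 difference of the 9 was 2.39 at P0 and 1.24 at 4 weeks, against 0.37 and 0.48 over all genes tested. Within the DFCK libraries, 1 of the 2 prefixes that the bulk labels carry (3 libraries per group in each), Tnfsf11 (adjusted p = 0.226) and Tnfrsf11b (1.83, adjusted p = 0.759) lost the call at P0, and within the TXCK libraries Tnfrsf11a (adjusted p = 0.315) and Tnfsf11 (adjusted p = 0.9999) lost it at 4 weeks.

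Tnfrsf11a was a gene of medullary epithelium. At P0 its lowest, median and highest CPM were 58.5, 61.8 and 66.4 in mTEC, and 0.0969, 0.877 and 1.57 in cTEC. In NETS it was measured mainly in CD31+ endothelium (0, 4.86 and 7.55 CPM), while the medians of Ly51+gp38- and of both gp38+ populations were 0. Every mTEC library thus lay above every cTEC and NETS library. TEC exceeded NETS by 3.53 ± 0.75 on the log2 scale (SE; adjusted p = 5.94e-05, edgeR's quasi-likelihood test). With mTEC alone the value was 6.62 ± 0.85, and with cTEC alone it was 0.44 and missed the threshold (adjusted p = 0.892). At 4 weeks the mTEC libraries ran from 45.5 to 83.1 CPM with a median of 54.9, again above all cTEC (0.0869 to 3.75) and all NETS libraries. The CD31+ median was 12.1 CPM at that age.

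Cd40, the receptor for CD40 ligand, was high in both epithelial lineages. Its lowest, median and highest CPM at P0 were 355, 412 and 482 in mTEC and 106, 114 and 148.8 in cTEC. CD31+ endothelium held 28.2, 36.7 and 86.9 CPM, and no other NETS library at P0 exceeded 28.7 CPM. TEC and NETS libraries did not overlap at P0 (106 to 482 against 3.25 to 86.9) or at 4 weeks (73.3 to 420 against 0 to 31.03). The log2 differences were 3.75 ± 0.39 at P0 (adjusted p = 4.14e-13, edgeR's quasi-likelihood test) and 4.49 at 4 weeks (adjusted p = 2.70e-15). With cTEC alone in place of both TEC they were 2.77 and 3.67, and Cd40 passed at both ages.

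Ltbr, the lymphotoxin beta receptor, ran the other way. Its lowest, median and highest CPM at P0 were 8.2, 26.2 and 32.9 in mTEC, 62.7, 72.5 and 94.7 in cTEC, and 54.4, 159 and 216 in CD31+ cells. The medians of the other 3 NETS populations lay between 89.8 and 118.5 CPM. All mTEC libraries were below all NETS libraries, whereas cTEC overlapped with them. The TEC against NETS difference was -1.58 ± 0.26 at P0 (adjusted p = 5.43e-07, edgeR's quasi-likelihood test) and -1.26 at 4 weeks (adjusted p = 3.38e-05). For cTEC alone it missed the threshold at both ages, with -0.77 at P0 (adjusted p = 0.0668) and -0.30 at 4 weeks (adjusted p = 0.585).

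Tnfrsf1a, a receptor for TNF, was also lowest in mTEC, followed by cTEC, and higher in NETS, whose populations came in another order than for Ltbr. Its P0 medians were 31.4 CPM in mTEC, 83.1 in cTEC, 165.2 in gp38+CD26-, 195 in CD31+, 237 in Ly51+gp38- and 253 in gp38+CD26+ cells. The pooled ranges of TEC (27.2 to 131.2 CPM) and NETS (109 to 289 CPM) overlapped only through the upper cTEC libraries. TEC were lower by -2.04 ± 0.27 at P0 (adjusted p = 9.89e-10, edgeR's quasi-likelihood test) and by -1.72 at 4 weeks (adjusted p = 8.24e-08), and both lineages taken alone passed at both ages.

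**Figure D1:**
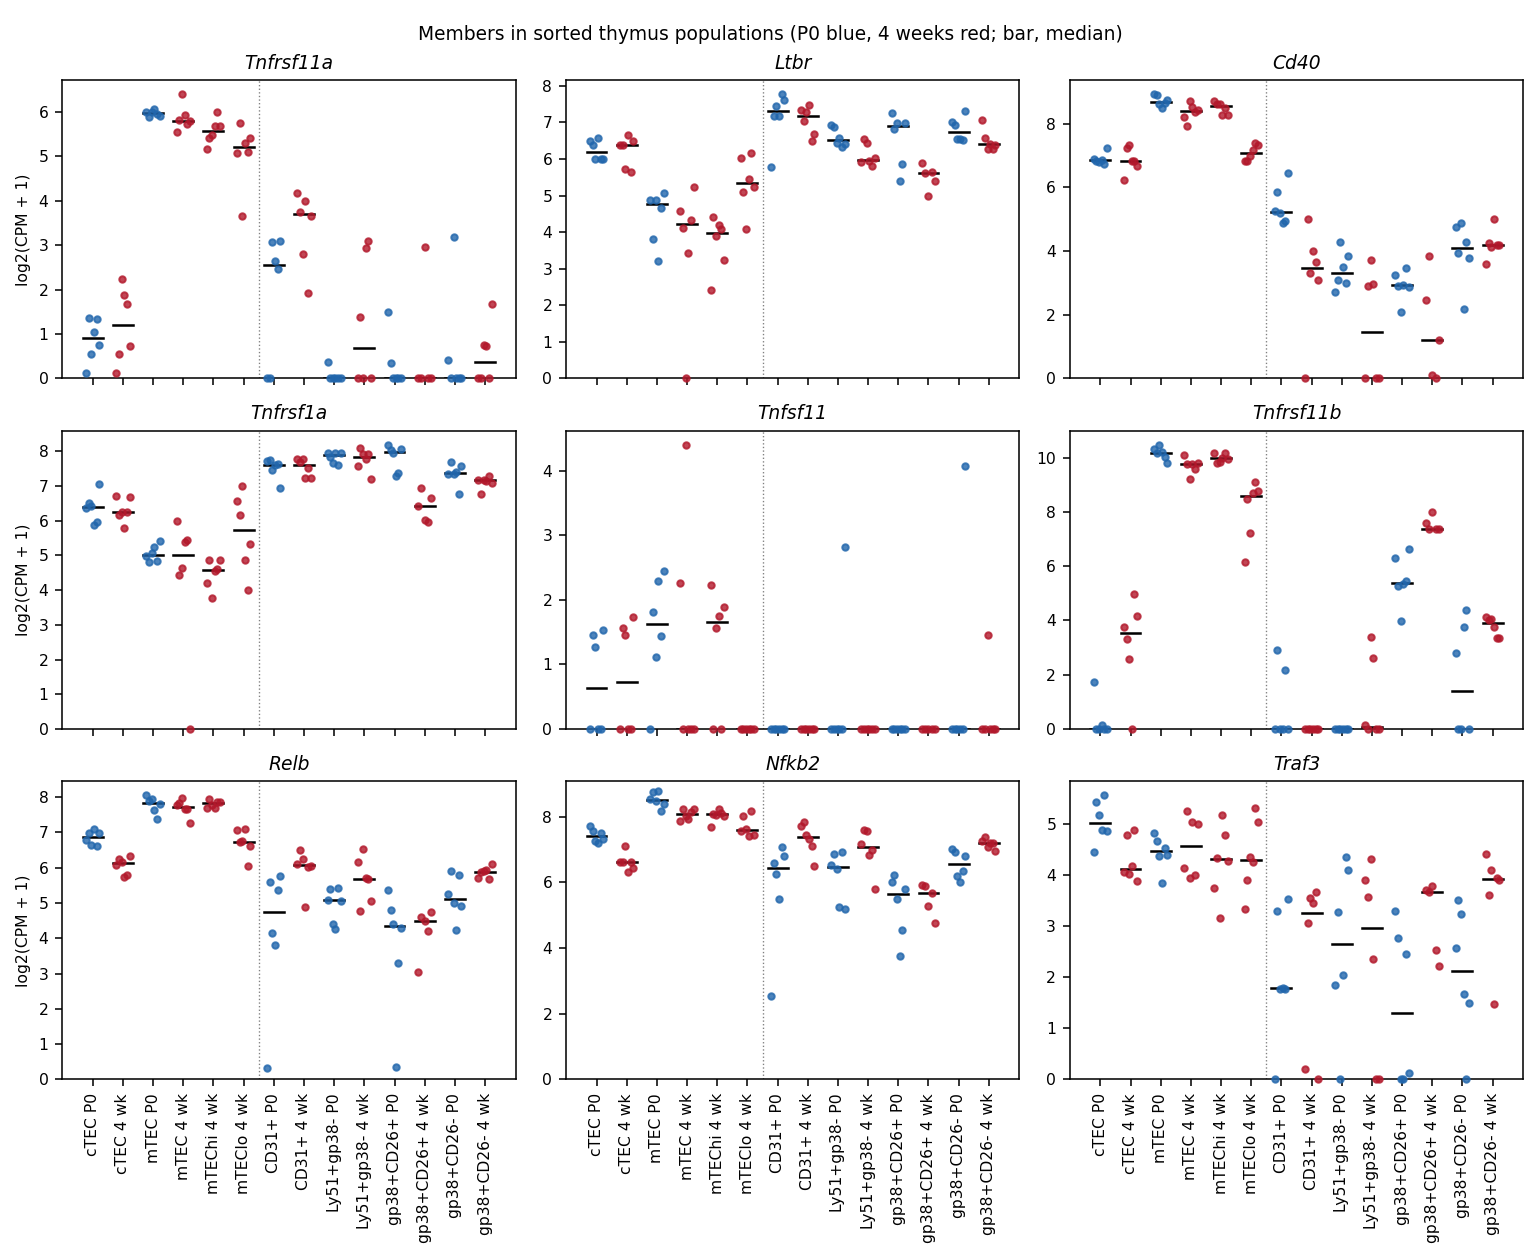
CPM of the 9 genes on a log2(CPM + 1) axis in sorted bulk populations, 1 point per library, blue at P0 and red at 4 weeks, with a bar at the median and a dotted line between epithelial (left) and nonepithelial (right) groups. Tnfrsf11a and Tnfrsf11b stand high in mTEC and not in cTEC, Cd40, Relb and Nfkb2 stand high in both at P0, and Ltbr and Tnfrsf1a are lowest in the mTEC groups other than mTEClo.

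The ligand was near the limit of detection in every sorted population. Tnfsf11 medians were 2.11 CPM in mTEC (0 to 4.44) and 0.707 CPM in cTEC (0 to 1.88) at P0, and every NETS median was 0. Single libraries nevertheless reached 15.8 CPM in gp38+CD26- cells at P0 and 20.1 CPM in mTEC at 4 weeks, so the TEC and NETS ranges overlapped. The TEC against NETS values of 3.26 ± 1.13 at P0 (adjusted p = 0.0181, edgeR's quasi-likelihood test) and 6.19 at 4 weeks (adjusted p = 0.000163) rest on these few counts. At 4 weeks the mTEC library at 20.1 CPM was the highest of the set and all but 1 NETS library were at 0.

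Tnfrsf11b, the decoy for that ligand, marked mTEC and not cTEC at birth. Its lowest, median and highest CPM at P0 were 904, 1157 and 1416 in mTEC and 0, 0 and 2.33 in cTEC. Among NETS the gp38+CD26+ capsular fibroblasts had 14.8, 41.0 and 98.3 CPM, gp38+CD26- cells reached 19.97, and CD31+ cells had a median of 0. All mTEC libraries were above all others. mTEC exceeded NETS by 9.46 ± 0.75 (edgeR's quasi-likelihood test, passed), whereas for cTEC alone the value had the opposite sign, -2.12, with an SE of 81.4, and it missed the threshold (adjusted p = 0.99998). At 4 weeks mTEC held 598 to 1097 CPM and gp38+CD26+ fibroblasts 163.3 to 255.

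Relb and Nfkb2 were both higher in the epithelium at birth. Relb had P0 medians of 228 CPM in mTEC (164 to 267) and 117 in cTEC (97.7 to 134.7), and its highest NETS library had 59.5. Nfkb2 had medians of 364 CPM in mTEC (286 to 433) and 169 in cTEC (144.3 to 208), and its highest NETS library had 133. TEC and NETS libraries of both genes were therefore separate at P0. The differences were 2.39 ± 0.26 for Relb (adjusted p = 2.14e-12, edgeR's quasi-likelihood test) and 1.70 ± 0.19 for Nfkb2 (adjusted p = 5.25e-12). At 4 weeks the NETS medians of Nfkb2 were 50.3 to 166 CPM against 96.5 in cTEC and 267 in mTEC, the ranges overlapped, and the difference of 0.40 missed the threshold (adjusted p = 0.0944). Fitted on the compared groups only, it passed (adjusted p = 0.014). Relb still passed (1.24, adjusted p = 5.75e-05), through mTEC (2.14) and not cTEC (0.34, adjusted p = 0.542; 34.9% of all genes).

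Traf3, the brake of the pathway, was low in sorted NETS, with P0 medians of 2.29 to 5.91 CPM there against 31.7 in cTEC (20.9 to 46.3) and 21.2 in mTEC (13.47 to 27.3). TEC were higher by 2.35 ± 0.57 at P0 (adjusted p = 0.000428, edgeR's quasi-likelihood test), and 1.16 at 4 weeks (adjusted p = 0.105), when the NETS medians were 7.50 to 14.2 CPM. In the single-cell age series at P0, Traf3 was 24.7 and 21.5 CPM in medullary fibroblasts and 10.6 and 11.7 in endothelium. That series was sorted without TEC, and the difference between the assays was not tested.

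NF-kB factors are known to act on promoters of their own pathway, and the promoters of Nfkb2 and Traf3 are shown because they held matches. RefSeq tables on GRCm38.p6 held the 250 bases before an annotated start for 6 of the 9 genes, in 8 windows. Cd40, Tnfrsf11b and Relb had no entry. The 10-base NF-kB consensus was searched on both strands, with overlapping matches joined into 1 run, and was found in 4 windows of 2 genes, Nfkb2 and Traf3. It was found in 7.25% of 32851 windows of all genes. Nfkb2 alone had 3 windows, all with a match and partly overlapping, so these window counts are not counts of genes. The windows of Tnfrsf11a, Ltbr, Tnfrsf1a and Tnfsf11 had no match. In the 3 sequences below, 5′ to 3′ and ending 1 base before the start, capitals mark the matched runs. They begin 39 and 11 bases before the start in Nfkb2 (chr19:46304487-46304736, plus strand) and 10 bases before it in Traf3 (chr12:111166120-111166369, plus strand), and Tnfrsf11a (chr1:105780473-105780722, plus strand) is the window without one. A match is a description of the letters and not a site.
Nfkb2: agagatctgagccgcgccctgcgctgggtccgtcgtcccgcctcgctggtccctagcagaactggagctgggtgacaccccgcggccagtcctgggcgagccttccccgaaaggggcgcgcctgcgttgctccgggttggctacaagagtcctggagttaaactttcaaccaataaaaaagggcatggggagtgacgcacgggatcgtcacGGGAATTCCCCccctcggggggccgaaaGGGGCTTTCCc
Traf3: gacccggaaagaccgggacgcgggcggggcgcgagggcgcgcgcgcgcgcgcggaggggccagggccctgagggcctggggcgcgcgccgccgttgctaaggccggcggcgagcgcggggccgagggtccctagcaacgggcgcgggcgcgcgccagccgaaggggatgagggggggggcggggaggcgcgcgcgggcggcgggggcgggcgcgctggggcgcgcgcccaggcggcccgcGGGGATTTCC
Tnfrsf11a: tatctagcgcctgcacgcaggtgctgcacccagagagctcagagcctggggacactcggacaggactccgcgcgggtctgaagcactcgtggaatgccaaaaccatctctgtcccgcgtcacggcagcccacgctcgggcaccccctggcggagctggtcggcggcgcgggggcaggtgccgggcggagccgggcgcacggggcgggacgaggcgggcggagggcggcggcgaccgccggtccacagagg

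Within the epithelium, 6 of the 9 genes differed between mTEC and cTEC at P0, 4 higher and 2 lower in mTEC, where 32.1% of all genes did (26.2% higher and 5.96% lower). At 4 weeks 7 did, 5 higher and 2 lower, of all genes 32.2% (23.9% and 8.33%). Higher in mTEC at P0 were Tnfrsf11a (6.18 ± 1.48, adjusted p = 0.000807, edgeR's quasi-likelihood test), Cd40 (1.96 ± 0.67, adjusted p = 0.0187), Tnfrsf11b (11.58 ± 1.44, adjusted p = 3.28e-09) and Nfkb2 (1.22 ± 0.33, adjusted p = 0.00273). Ltbr (-1.63 ± 0.41, adjusted p = 0.00133) and Tnfrsf1a (-1.26 ± 0.40, adjusted p = 0.0116) were lower. Libraries of the 2 populations did not overlap for any of these 6 genes, nor for Relb, whose 1.06 missed the threshold (adjusted p = 0.0577) and passed with DESeq2 (adjusted p = 0.043). At 4 weeks the same 6 genes passed with the same signs, and Relb with 1.80 (adjusted p = 0.00158). In a fit of those 12 libraries alone Ltbr (adjusted p = 0.0581) and Tnfrsf1a (adjusted p = 0.289) lost the call at 4 weeks, as did Cd40 without a filter on low counts or with all libraries kept (adjusted p = 0.0669 in each). Within either prefix the called genes kept their sign and 3 of the 9 passed at each age.

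Myeloid, innate lymphoid and B cell markers moved with the mTEC groups. The sum of 5 myeloid and dendritic cell genes had a median of 204 CPM in mTEC at P0 (197 to 248) against 1.76 in cTEC, and all 5 were detected in mTEC. For 4 genes of group 3 innate lymphoid cells the medians were 84.8 CPM in mTEC (67.8 to 147.96) and 0.244 in cTEC, and for 4 B cell genes 47.7 CPM (32.4 to 66.9) and 0.193. Their part in the mTEC levels was not tested in the sorted libraries. In the newborn single-cell data the mature medullary cells by themselves held 417 CPM over the 4 myeloid and dendritic cell genes that the newborn table lists, of which 3 were detected and Itgax was at 0, and the other lists at 114 and 58.8 CPM. Thymocyte markers had the opposite order in the sorted libraries at 4 weeks. Their medians were 1271 CPM in cTEC (385 to 1703) and 26.4 in mTEC (20.5 to 60.1), and their part was not tested.

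mTEChi cells, which include the AIRE-expressing stage, were set against mTEClo at 4 weeks, and 4 of the 9 genes passed, 2 higher and 2 lower, where 19.0% of all genes did (14.4% higher and 4.66% lower). Relb was higher in mTEChi, with lowest, median and highest CPM of 205, 227 and 245 against 65.6, 105 and 135.5 (1.31, adjusted p = 0.0297, edgeR's quasi-likelihood test). Ltbr was lower (4.33, 14.9 and 20.2 against 15.9, 39.7 and 71.2 CPM; -1.47, adjusted p = 0.00739). Tnfrsf1a was lower too (12.7, 23.0 and 28.2 against 15.0, 54.9 and 127.1 CPM; -1.24, adjusted p = 0.0216), but was 0.21 within the TXCK libraries and lost the call in a fit of those 12 libraries alone (adjusted p = 0.0727). Relb libraries were separate, and those of Ltbr and Tnfrsf1a overlapped. Tnfsf11 had a median of 2.16 CPM in mTEChi (0 to 3.70) and was at 0 in all mTEClo libraries (adjusted p = 0.0424, and 0.0514 without a filter on low counts). With reads pooled over libraries, its mTEChi level was at least 35.5-fold above a floor of 3 counts. That value leaves out the spread between libraries.

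Cd40 and Tnfrsf11b also had separate libraries. Cd40 ran from 307 to 419 CPM in mTEChi and from 112.6 to 165.3 in mTEClo, and Tnfrsf11b from 904 to 1164 and from 69.4 to 546. In the fit over all groups neither passed (1.65, adjusted p = 0.0681 and 1.90, adjusted p = 0.153, edgeR's quasi-likelihood test). In a fit of those 12 libraries alone both did (adjusted p = 8.7e-06 and 0.0041). Nfkb2, whose libraries overlapped, passed in that fit as well (0.50, adjusted p = 0.0466). Myeloid and dendritic cell markers moved in the same direction, with medians of 479 CPM in mTEChi and 104 in mTEClo, and their part was not tested.

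Of 33 further pathway genes, listed by function with earlier results of these data known, 22 were higher in TEC than in NETS at P0 and 0 lower, beside 24.9% and 14.7% of all genes, and at 4 weeks 22 were higher and 2 lower (Traf5 and Rela), beside 29.8% and 12.9%. Their median difference was 1.68 at P0 and 1.12 at 4 weeks. Of 9 output genes 8 were higher in TEC at both ages, including Aire, Fezf2 and Cd80 of the medulla and the chemokines Ccl19 and Ccl21a, and Cxcl13 was the exception. Aire, Fezf2 and Cd80 also served as mTEC marker genes here, so their direction was known beforehand. With cTEC alone in place of both TEC the direction turned at P0 for Ltb (-1.05), Nfkbia (-0.14) and Madcam1 (-1.41), none past the threshold. At 4 weeks it turned for Ccl19 (-0.92, adjusted p = 0.287), and Birc3 (-0.74, adjusted p = 0.00126) and Nfkbia (-0.40, adjusted p = 0.0366) passed as lower than in NETS (edgeR's quasi-likelihood test). Of 10 adaptors and kinases 6 were higher at P0 (Traf2, Traf6, Birc2, Birc3, Map3k14 and Ikbkb), Map3k14 encoding NIK, and all 5 inhibitors were higher (Nfkbia, Nfkbib, Nfkbie, Tnfaip3 and Cyld). Of 6 ligands, Ltb alone passed at P0, with 157, 211 and 404 CPM (lowest, median and highest) in mTEC. Lta was measured in mTEC at 3.91, 7.66 and 17.1 CPM. Between mTEC and cTEC 19 of the 33 were higher and 2 lower (Traf5 and Nfkb1) at P0, beside 26.2% and 5.96% of all genes, and 13 were higher and 1 lower at 4 weeks, beside 23.9% and 8.33%.

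From birth to 4 weeks few of the 9 genes changed within a sorted population. In mTEC none passed edgeR's quasi-likelihood test, where 3.91% of all genes did, 0 at an unadjusted p under 0.05 and 0 by DESeq2. In gp38+CD26- cells none passed either, where 8.63% of all genes were higher and 4.82% lower, 1 (Nfkb2) at an unadjusted p under 0.05 and 0 by DESeq2, but Relb (0.74, adjusted p = 0.0396) and Nfkb2 (0.72, adjusted p = 0.00696) passed when these libraries were fitted alone. In cTEC only Tnfrsf11b passed (10.2% of all genes), rising by 5.01 ± 1.17 (adjusted p = 0.00222) from a median of 0 CPM (0 to 2.33) to 10.9 CPM (0 to 30.4), with overlapping ranges. The mTEC marker sum moved with it, from 54.9 to 342 CPM in cTEC, as did thymocyte markers (30.5 to 1271 CPM), and their part was not tested. Relb and Nfkb2 had separate libraries at the 2 ages in cTEC, with medians of 117 and 68.8 CPM for Relb and 169 and 96.5 CPM for Nfkb2, and passed only when cTEC were fitted alone (-0.74, adjusted p = 0.0018 and -0.74, adjusted p = 0.002).

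Among the NETS populations, 3 of the 9 genes passed in CD31+ cells, where 10.5% of all genes did. Relb rose by 1.34 (adjusted p = 0.0403, edgeR's quasi-likelihood test) and Nfkb2 by 1.25 (adjusted p = 0.00696), and neither passed when CD31+ libraries were fitted alone (adjusted p = 0.39 and 0.24). Tnfrsf11b was at 0 in all CD31+ libraries at 4 weeks (adjusted p = 0.0140), although 4 of the 6 P0 libraries were at 0 as well. With reads pooled over libraries, its P0 level was at least 40.0-fold above a floor of 3 counts. That value leaves out the spread between libraries, from 0 to 6.57 CPM at P0. Mural marker genes rose in those CD31+ libraries from a median sum of 66 to 1183 CPM, and their part was not tested.

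In Ly51+gp38- cells 3 of the 9 passed (11.6% of all genes). Nfkb2 was higher by 0.93 (adjusted p = 0.0492, edgeR's quasi-likelihood test). Tnfrsf11a (5.63, adjusted p = 0.0105) and Tnfrsf11b (adjusted p = 0.00307) rested on low levels, with medians of 0.810 CPM or less at 4 weeks. Tnfrsf11b was at 0 in all P0 libraries. With reads pooled over libraries, its level at 4 weeks was at least 70.9-fold above a floor of 3 counts. That value leaves out the spread between libraries, from 0 to 9.39 CPM with a median of 0.0495 at 4 weeks. TEC markers in these libraries went from 32.7 CPM (0.531 to 58.9) at P0 to 140 (43.1 to 392) at 4 weeks and cTEC markers from 41.1 to 502, and their part was not tested. The Nfkb2 call was lost when these libraries were fitted alone (adjusted p = 0.134), without a filter on low counts (0.0772), with all libraries kept (0.0591), with the label prefix as a term (0.0553) and within the TXCK libraries, where the value was 0.22. In the fit of these libraries alone, Tnfrsf11a and Tnfrsf11b were removed by the filter on low counts and not tested. Both lost the call within the TXCK libraries (5.61, adjusted p = 0.174 and 7.44, adjusted p = 0.204). They lost it within the DFCK libraries too (5.65, adjusted p = 0.151 and 8.30, adjusted p = 0.0698).

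In gp38+CD26+ fibroblasts 1 of the 9 passed (9.57% of all genes). Tnfrsf1a went from 154, 253 and 289 CPM at P0 (lowest, median and highest) to 61.5, 84.6 and 121.9 at 4 weeks without overlap (-1.24, adjusted p = 0.0473, edgeR's quasi-likelihood test). Leaving out any of 4 of the 5 libraries at 4 weeks (replicate 1, 4, 5 or 6) ended that call, with values from -1.16 to -1.33 and adjusted p-values from 0.061 to 0.12. Tnfrsf11b was separate in the opposite direction, with 14.8 to 98.3 CPM at P0 and 163.3 to 255 at 4 weeks. It passed in the fit of this population alone (1.96, adjusted p = 0.004) and not in the fit over all groups (2.03, adjusted p = 0.186). Ltbr passed in that fit alone as well (-1.06, adjusted p = 0.0436), and within the TXCK libraries Ltbr (-1.50, adjusted p = 0.0312) and Cd40 (-3.55, adjusted p = 0.0290) did. mTEC markers in these libraries were 0.0466 CPM at P0 and 24.4 (11.2 to 33.4) at 4 weeks, and their part was not tested. The fall in Tnfrsf1a was not seen in capsular fibroblasts of the single-cell age series. They had 200 and 269 CPM at P0 and 204 and 214 at 4 weeks, which overlap, and the gene did not pass there. The difference between the assays was not tested.

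The change with age was compared between lineages in the same model. For Nfkb2 it was lower in TEC than in NETS by -1.30 ± 0.28 (adjusted p = 0.000988, edgeR's quasi-likelihood test), 1 of the 9 in a contrast that 6.49% of all genes passed. For Relb the value was -1.14 (adjusted p = 0.0573). For Tnfrsf11b the age change in mTEC was below that in cTEC by -5.31 ± 1.47 (adjusted p = 0.0280; 2.87% of all genes).

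Likeness of pattern was described by the Pearson correlation of mean log2(CPM + 1) over the 14 bulk groups, among 20416 other genes. The closest gene to Relb was Nfkb2 (r = 0.971), followed by Birc2 (0.969), which encodes a ligase that acts with TRAF3, and Etv6 (0.958). Nfkb2 was followed by Tank (0.965), a TRAF-binding protein, and Nfkbie (0.946), an NF-kB inhibitor. Tnfrsf11a was closest to Zfp296 (0.976), Crybg1 (0.970) and Gm12655 (0.967), Tnfrsf11b to Homer2 (0.969), Ptgs2 (0.946) and Wnt10b (0.938), and Cd40 to Coq3 (0.967), Marcksl1 (0.960) and the identifier ENSMUSG00000091747 (0.955). Ltbr was closest to Tcf4 (0.962), Phactr2 (0.956) and Tspan9 (0.956), with Tnfrsf1a at rank 11 (0.933). Tnfrsf1a was closest to Zcchc14 (0.978), Rsu1 (0.963) and Lats2 (0.961), Traf3 to Cdkl2 (0.946), Sorl1 (0.940) and Spg21 (0.940), and Tnfsf11 to Tinf2 (0.948), Dtx1 (0.943) and Tdp1 (0.938). The 14 points are means over the same libraries for every gene, so these values carry no test.

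Single cells of the newborn thymus placed the same genes in subtypes, which the authors had assigned. In all 6 libraries together, mature medullary TEC (MmTEC, 518 cells) held the most Tnfrsf11a, Cd40, Tnfrsf11b, Relb and Nfkb2 in CPM among subtypes with at least 5 cells in a library. Levels are means ± SD over libraries (n = 6 unless given), and subtypes were not tested against each other, since they share cells and libraries.

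Tnfrsf11a averaged 138.7 ± 34.6 CPM in MmTEC (104 to 200), and a UMI was found in 34.2% of cells (exact binomial 95% interval 30.1 to 38.4, counting error only). Proliferating TEC (PrTEC) had 63.9 ± 35.2 CPM and intertypical TEC (ItTEC) 38.8 ± 25.5, ranges that overlapped. Venous and lymphatic endothelium (EnVL) followed with 9.45 ± 6.40, against 5.01 ± 0.84 in perinatal cortical TEC (PcTEC). In pericytes, a type not known for RANK, 0.567% of cells had a UMI at a median depth of 2742 UMIs, against 3170 in MmTEC. Thinning to 2000 UMIs left out shallower cells and kept 426 of 518 MmTEC, 392 of 487 PrTEC, 702 of 1166 ItTEC, 262 of 387 EnVL and 1980 of 2647 pericytes. Of those kept, 21.4% of MmTEC, 8.67% of PrTEC, 5.84% of ItTEC, 2.29% of EnVL and 0.202% of pericytes had a UMI.

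Cd40 averaged 258 ± 71.6 CPM in MmTEC (171.99 to 352), 116 ± 39.3 in PrTEC, 84.0 ± 20.8 in ItTEC, 66.9 ± 9.17 in PcTEC and 61.1 ± 16.0 in mature cortical TEC (McTEC). MmTEC lay above the other types, while the 4 that follow overlapped with their neighbors. Arterial, capillary and venous endothelium had 27.2, 25.5 and 18.8 CPM. In the same order TEC markers summed to 577, 448 and 493 CPM there, against 3552 in PcTEC, and to 5.56, 5.91 and 6.01 CPM in the age series. Their part in the newborn Cd40 levels was not tested. A UMI was found in 50.2% of MmTEC (39.2% thinned) and 3.17% of pericytes (1.67% thinned).

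The low Ltbr and Tnfrsf1a of mTEC was seen in these cells as well. Ltbr averaged 20.04 ± 8.56 CPM in MmTEC, rank 26 of 29 subtypes, against 77.4 in McTEC and 80.6 ± 10.9 in the perinatal capsular subtype CapFb1b. The subtype labelled nTEC had the highest mean, 102 ± 48.2, but its mesenchyme markers summed to 8788 CPM and its TEC markers to 1306, against 873 and 4377 in McTEC. Tnfrsf1a averaged 41.8 ± 11.3 CPM in MmTEC, rank 28, against 287 ± 61.1 in pericytes and 286 ± 73.1 in the capsular subtype CapFb1c.

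**Figure D2:**
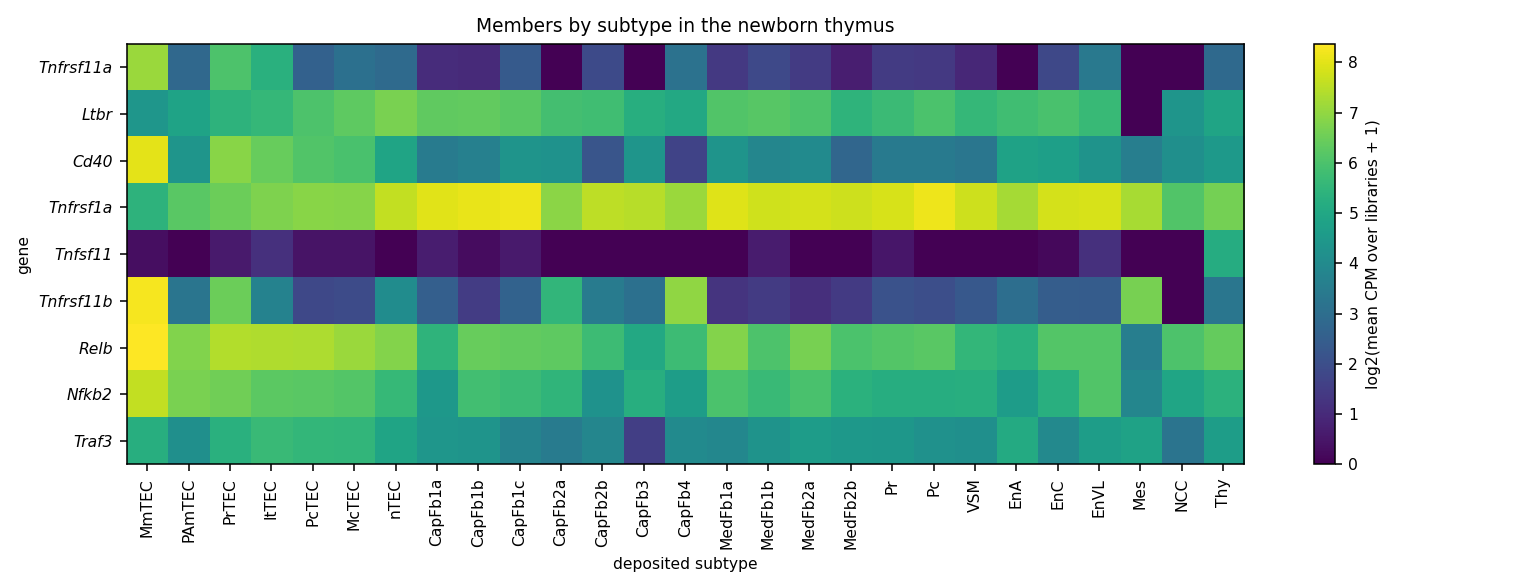
Heat map of the 9 genes (vertical axis) in the subtypes of the newborn thymus (horizontal axis), colored by log2(mean CPM over libraries + 1). The MmTEC column is brightest for Tnfrsf11a, Cd40, Tnfrsf11b, Relb and Nfkb2, the decoy Tnfrsf11b has a further bright cell in CapFb4, and Tnfsf11 is dark except in thymocytes.

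Tnfsf11 was measured in the thymocytes left in the sort (Thy), at 35.4 ± 24.1 CPM (13.4 to 82.2; 51 UMIs in 5.98% of 535 cells, and 8.16% of the 282 cells kept by thinning). Thymocyte markers summed to 2031 CPM in this subtype, all 4 genes of group 3 innate lymphoid cells were detected there (106 CPM, 44.9 to 160.7 over libraries), and mesenchyme and TEC markers summed to 2234 and 995 CPM. Their part in the Tnfsf11 level was not tested. Every other subtype was at 1.23 CPM or less. No UMI was found in 2647 pericytes or in 364 CapFb2b cells, which allows shares of cells with a UMI of up to 0.113% and 0.824% and sets no limit on cells expressing the gene. The decoy Tnfrsf11b averaged 303 ± 124.8 CPM in MmTEC (133.97 to 509; 42.1% of cells, 33.8% thinned) and 124.3 ± 97.7 in CapFb4 fibroblasts (33.9 to 264; 27.3% of 322 cells, and 15.7% of the 274 kept by thinning). Proliferating TEC had 89.8 ± 37.9, mesothelium 100 (n = 3), the capsular subtype CapFb2a 44.5 (n = 5) and pericytes 2.99 CPM (0.944% of cells, 0.505% thinned). MmTEC and CapFb4 overlapped in range over the 6 libraries, which include both genotypes.

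Relb was 330 ± 37.1 CPM in MmTEC, and 167.6 ± 27.0, 166 ± 34.8 and 162 ± 6.88 in PrTEC, ItTEC and PcTEC, whose ranges overlapped. The medullary fibroblasts MedFb1a reached 111 ± 29.8. Nfkb2 was 194 ± 17.0 CPM in MmTEC, followed by post-AIRE medullary TEC (PAmTEC) with 100.9 ± 38.4 and PrTEC with 93.9 ± 12.4. PAmTEC held mesenchyme markers at 2776 CPM, TEC markers at 1291 and mTEC markers at 273, against 999.9, 2453 and 2490 in MmTEC. Traf3 was highest in the subtype labelled sTEC (70.1 CPM, n = 3), from 3 UMIs in 32 cells, followed by 49.8 ± 18.4 CPM in ItTEC, 46.1 ± 3.4 in PcTEC, 44.3 in McTEC, 38.6 in PrTEC and 36.8 in MmTEC, whose ranges overlapped. It was 17.0 ± 18.8 in PAmTEC and 17.7 in pericytes.

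The newborn libraries also carry the genotype comparison, which asks what combined loss of 1 copy of Tbx1 and Crkl does to the stroma. Neither targeted gene separated the groups. Tbx1 had 0, 0 and 8 UMIs in the Tbx1+/- Crkl+/- libraries and 13, 6 and 19 in WT, and Crkl was at 24.1, 23.6 and 26.9 CPM and 23.0, 25.1 and 18.4 CPM. Median depth per cell was 2551, 2391 and 2506 UMIs in Tbx1+/- Crkl+/- and 2577, 3631 and 4686 in WT libraries.

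Of the 9 genes, Tnfrsf11b in capsular fibroblasts was the only one that passed in any of 7 cell classes. It had 3.55, 7.48 and 8.26 CPM in the Tbx1+/- Crkl+/- libraries (3, 19 and 12 UMIs) and 22.6, 33.1 and 31.5 CPM in WT (38, 69 and 209 UMIs). The genotypes did not overlap, and the difference was -2.13 ± 0.32 on the log2 scale (adjusted p = 0.0164, edgeR's quasi-likelihood test over 10761 genes). This was 1 of 7 members tested in a comparison that 0.065% of all genes passed. Without Tbx1+/- Crkl+/- replicate 3 the value was -2.26 and the call was lost (adjusted p = 0.0689).

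Within the capsule the level was higher in CapFb4, the Pi16-high subtype, than in the sum of the other subtypes, in all 6 libraries. CapFb4 cells had 41.1, 44.5 and 33.9 CPM in Tbx1+/- Crkl+/- (25, 50 and 52 cells) and 170, 264 and 191.8 CPM in WT (54, 32 and 109 cells). Summed over CapFb4 alone, the test gave -2.33 ± 0.40 (adjusted p = 0.00129, edgeR's quasi-likelihood test; 0.118% of 3386 genes). CapFb4 was picked after its level was seen in these libraries, so this p-value adds no support to the capsular one. The Tbx1+/- Crkl+/- sums rest on few UMIs (3, 19 and 12 over all capsular cells), and the gene passed the filter on low counts there through WT. The other capsular subtypes had 0, 4.66 and 5.36 CPM against 4.67, 11.1 and 6.78, too few UMIs to be tested (0.00947% of the genes tested there passed). CapFb4 made up 8.39%, 6.22% and 9.74% of capsular cells in Tbx1+/- Crkl+/- and 9.76%, 7.60% and 10.7% in WT, which overlap.

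Depth moved with genotype in these cells. The share of CapFb4 cells with a Tnfrsf11b UMI was 12%, 12% and 7.69% in Tbx1+/- Crkl+/- and 16.7%, 46.9% and 46.8% in WT, at median depths of 2454, 3135 and 2576 UMIs and of 2594, 4780 and 6802. Thinning to 2000 UMIs left out shallower cells and kept 19, 39 and 39 CapFb4 cells in Tbx1+/- Crkl+/-, and 42, 27 and all but 1 in the WT libraries. Of these, 10.5%, 12.8% and 7.69% had a UMI against 16.7%, 29.6% and 16.7%, so the shares did not overlap in these few cells but lay closer than before thinning. The part of depth in the CPM difference was not tested.

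In medullary TEC (MmTEC with post-AIRE cells), where 0.154% of all genes passed, Tnfrsf11b was 107.2, 207 and 186 CPM in Tbx1+/- Crkl+/- and 306, 469 and 259 CPM in WT. These did not overlap, and the difference of -1.06 ± 0.33 missed the threshold (adjusted p = 0.269, edgeR's quasi-likelihood test). Without a filter on low counts it passed (adjusted p = 0.041), and in MmTEC alone it was -0.83 (adjusted p = 0.421; 0.148% of all genes). None of the 8 genes tested in medullary TEC passed, and none of 6 in medullary fibroblasts (0.0519% of all genes), 6 in endothelium (0.0126%), 6 in mural cells (0.112%), 7 in cortical TEC (0.0%) and 7 in ItTEC (0.0%). In these 6 classes DESeq2 called 0 of them, and at an unadjusted p under 0.05 there was 1 in medullary TEC (Tnfrsf11b) and 1 in medullary fibroblasts (Cd40).

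**Figure D3:**
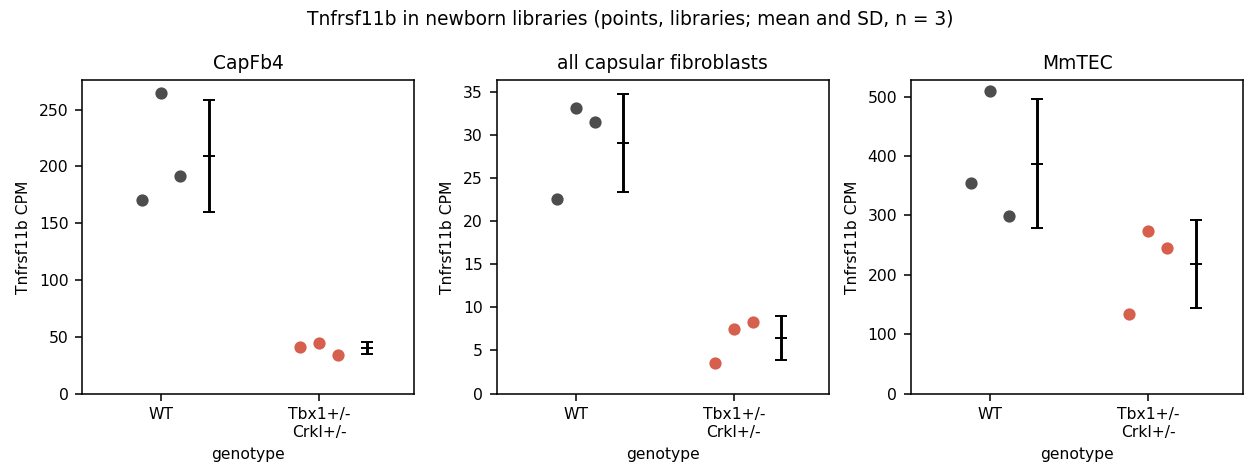
Tnfrsf11b CPM in WT and Tbx1+/- Crkl+/- newborn libraries, 1 point per library with mean and SD (n = 3), in CapFb4, in all capsular fibroblasts and in MmTEC. The WT points of CapFb4 lie at 170 to 264 CPM and those of Tbx1+/- Crkl+/- at 33.9 to 44.5 CPM.

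The age series followed the 9 genes in NETS from E12.5 to 4 weeks. Cell classes here are sums over subtypes whose shares move with age, E12.5 and E13.5 have 1 library each, and their spread is taken from the replicated ages. The part of the bead depletion described for adult thymi in differences at 4 weeks was not tested. Over the 5 ages 8 of 9 genes changed in capsular fibroblasts, 8 of 9 in medullary fibroblasts, 8 of 8 tested in endothelium and 7 of 8 in mural cells, against 79.1%, 79.5%, 60.8% and 66.6% of all genes (edgeR's quasi-likelihood test, adjusted over all genes). Tnfrsf11a was the exception in each class but endothelium. DESeq2 called 7, 7, 6 and 5.

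In medullary fibroblasts the signal genes rose through development. Relb was 8.09 CPM at E12.5, 16.9 at E13.5, 60.5 and 62.5 at E16.5, 87.3 and 83.8 at P0 and 101.4 and 105 at 4 weeks. Nfkb2 was 7.42, 6.60, 56.6 and 55.8, 98.1 and 72.2, and 121 and 113.2 CPM in the same order. Traf3 was 11.5, 7.84, 13.0 and 13.3, 24.7 and 21.5, and 36.2 and 36.2 CPM. For all 3 genes both libraries at 4 weeks were above both at P0, and the differences of 0.26 ± 0.06 (adjusted p = 0.00571), 0.45 ± 0.11 (adjusted p = 0.00587) and 0.64 ± 0.10 (adjusted p = 0.000246) passed edgeR's quasi-likelihood test. Relb did not pass by DESeq2 (0.27, adjusted p = 0.0844). With Tnfsf11, 4 of 9 genes passed between P0 and 4 weeks in this class, where 52.7% of all genes did.

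Endothelium and mural cells showed the rise in Nfkb2. It went from 15.2 CPM at E12.5 to 65.4 and 48.7 at P0 and 83.2 and 90.4 at 4 weeks in endothelium (0.54 ± 0.15 from P0, adjusted p = 0.0298, edgeR's quasi-likelihood test). In mural cells it went from 10.1 to 36.4 and 41.2 and then 76.1 and 65.9 CPM (0.75 ± 0.10, adjusted p = 0.00185). The endothelial call was lost by DESeq2 (adjusted p = 0.0955) and without P0 replicate 2 or either library at 4 weeks. In capsular fibroblasts Relb was 44.2 and 57.5 CPM at P0 and 41.8 and 40.7 at 4 weeks, which missed the threshold (-0.23, adjusted p = 0.173) and passed without P0 replicate 1 (-0.42, adjusted p = 0.000194). Nfkb2 missed it too (0.41, adjusted p = 0.0648), with 0.66 without P0 replicate 2 (adjusted p = 0.000315) and the opposite sign in CapFb4 fitted alone (-0.65, adjusted p = 0.0492). In the same class Traf3 rose from 13.0 and 13.0 CPM at P0 to 20.6 and 19.0 at 4 weeks (0.68 ± 0.09, adjusted p = 0.000815). In CapFb2b cells alone the Traf3 value was 0.87 ± 0.22 (adjusted p = 0.00955), where 15.0% of all genes were higher and 15.0% lower. In CapFb4 cells alone it was -0.10 and missed the threshold (adjusted p = 0.810). Between P0 and 4 weeks 3 of 9 genes passed in capsular fibroblasts, 4 of 8 in endothelium and 2 of 8 in mural cells, against 48.3%, 24.2% and 33.7% of all genes.

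Cd40 fell in the endothelium. The class had 63.0 CPM at E12.5, 25.8 at E13.5, 11.1 and 13.3 at E16.5, 18.0 and 15.7 at P0 and 3.41 and 5.21 at 4 weeks. Both libraries at 4 weeks were the lowest of the 8, and the difference from P0 was -2.04 ± 0.27 (adjusted p = 0.000839, edgeR's quasi-likelihood test). The 3 endothelial subtypes all had their highest value at E12.5 and their lowest at 4 weeks. Arterial endothelium had 194 CPM at E12.5, from 10 cells, and 1.82 and 7.19 at 4 weeks, and EnVL 69.4 and then 5.62 and 3.62. In EnVL alone the difference was -2.44 ± 0.38 (adjusted p = 0.00148; 14.6% of all genes). Capsular fibroblasts had far less Cd40, 1.98 and 2.10 CPM at P0 and 0.638 and 0.750 at 4 weeks (-1.45 ± 0.31, adjusted p = 0.00751).

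Tnfrsf11a was found in NETS mainly in EnVL. Its values there were 0 at E12.5 (31 cells, where a count of 0 allows up to 6.12 CPM), 4.58 CPM at E13.5, 3.12 and 7.13 at E16.5, 13.3 and 13.2 at P0 and 29.97 and 14.5 at 4 weeks, from 0, 6, 6, 19, 15, 12, 32 and 12 UMIs. The ages differed in EnVL (adjusted p = 0.00949, edgeR's quasi-likelihood test; 40.5% of all genes), and 4 weeks did not differ detectably from P0 (0.73 ± 0.46, adjusted p = 0.337). EnVL was picked after its level was seen in these libraries, so the p-value over the ages adds no support to that of the whole endothelium. A UMI was found in 12.6% and 10.8% of EnVL cells at P0 and 25% and 10.3% at 4 weeks.

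Ltbr and Tnfrsf1a rose from the early embryo to E16.5. In capsular fibroblasts Ltbr was 41.3 and 36.4 CPM at E12.5 and E13.5 and 74.8 to 107.01 in the 6 later libraries. In mural cells Tnfrsf1a was 54.5 and 83.4 CPM at those ages, 319 and 314 at E16.5, 230 and 320 at P0 and 431 and 398 at 4 weeks. All later libraries were above both early ones in these classes. In CapFb4 fitted alone the ages did not differ detectably for Ltbr (adjusted p = 0.344, edgeR's quasi-likelihood test; 51.5% of all genes). The step from P0 to 4 weeks in mural Tnfrsf1a (0.47 ± 0.14, adjusted p = 0.0387, edgeR's quasi-likelihood test) was lost when any library of E16.5 or 4 weeks was left out. Sorted Ly51+gp38- cells had Tnfrsf1a medians of 237 CPM at P0 and 229 at 4 weeks, with overlapping ranges. The difference between the assays was not tested. Pericytes had 48.1 CPM of Tnfrsf1a at E12.5 and 590 and 605 at 4 weeks. In endothelium Ltbr fell from 100.8 and 88.1 CPM at P0 to 68.9 and 70.6 at 4 weeks, and passed edgeR's quasi-likelihood test. In EnVL alone the Ltbr value was -0.27 and missed the threshold (adjusted p = 0.361).

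RANKL transcript in NETS was found mainly in the capsule at E16.5. In the capsular subtype CapFb2b Tnfsf11 was 0.306 CPM at E12.5, 0.705 at E13.5, 50.7 and 47.3 at E16.5 (194 and 229 UMIs), 0.563 and 18.1 at P0 (2 and 48 UMIs) and 0.399 and 0 at 4 weeks. The 2 libraries at E16.5 were the highest, at 8.68% and 10.6% of 219 and 274 cells with a UMI, and the 2 at P0 were far apart. The ages differed in CapFb2b (adjusted p = 6.74e-05, edgeR's quasi-likelihood test; 64.0% of all genes) and over all capsular fibroblasts (adjusted p = 0.000732), where the E16.5 libraries had 8.19 and 8.53 CPM and no other exceeded 2.35. CapFb2b was picked after its level was seen in these libraries, so its p-value adds no support to the capsular one. In medullary fibroblasts Tnfsf11 was 0.375 and 0.278 CPM at P0 and 3.43 and 1.14 at 4 weeks (2.76 ± 0.62, adjusted p = 0.00341).

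Tnfrsf11b had its own course in the same compartment. In CapFb4 it was 104 CPM at E12.5 (6 cells), 1.68 at E13.5 (1 UMI), 76.0 and 83.2 at E16.5, 173.3 and 138 at P0 and 30.6 and 33.4 at 4 weeks. Both P0 libraries were above all others and both libraries at 4 weeks were below those of E16.5 and P0. The fall from P0 to 4 weeks in CapFb4 was -2.18 ± 0.14 (adjusted p = 1.37e-11, edgeR's quasi-likelihood test; 31.9% of all genes). Summed over the capsule it was -1.42 ± 0.43 (adjusted p = 0.0283), and that call was lost without either library of E16.5 or of 4 weeks. CapFb4 was picked after its level was seen in these data, so its p-value adds no support to the capsular one. In the sorted gp38+CD26+ capsular fibroblasts the value between the same ages had the opposite sign, 2.03 over all groups (adjusted p = 0.186) and 1.96 in that population alone (adjusted p = 0.004). The difference between the assays was not tested. Mesothelium had 186 and 177 CPM at P0 (228 and 7 cells) and 136.01 and 71.8 at 4 weeks.

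The E12.5 library held Tnfrsf11b in other subtypes too, with 130 CPM in the capsular subtype CapFb2a and, outside the capsule, 117 in vascular smooth muscle and 43.1 in pericytes. In vascular smooth muscle the other 7 libraries had at most 17.2 CPM, which was P0 replicate 1. Over mural cells the value between P0 and 4 weeks was -1.47 (adjusted p = 0.368, edgeR's quasi-likelihood test), and without P0 replicate 1 it was 1.76 (adjusted p = 0.0305), so that this single library set the sign. In endothelium Tnfrsf11b was 8.17 and 4.00 CPM at P0 and 1.24 and 0 at 4 weeks (-3.24 ± 0.82, adjusted p = 0.0212), a call lost without P0 replicate 1 or 4 weeks replicate 2.

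**Figure D4:**
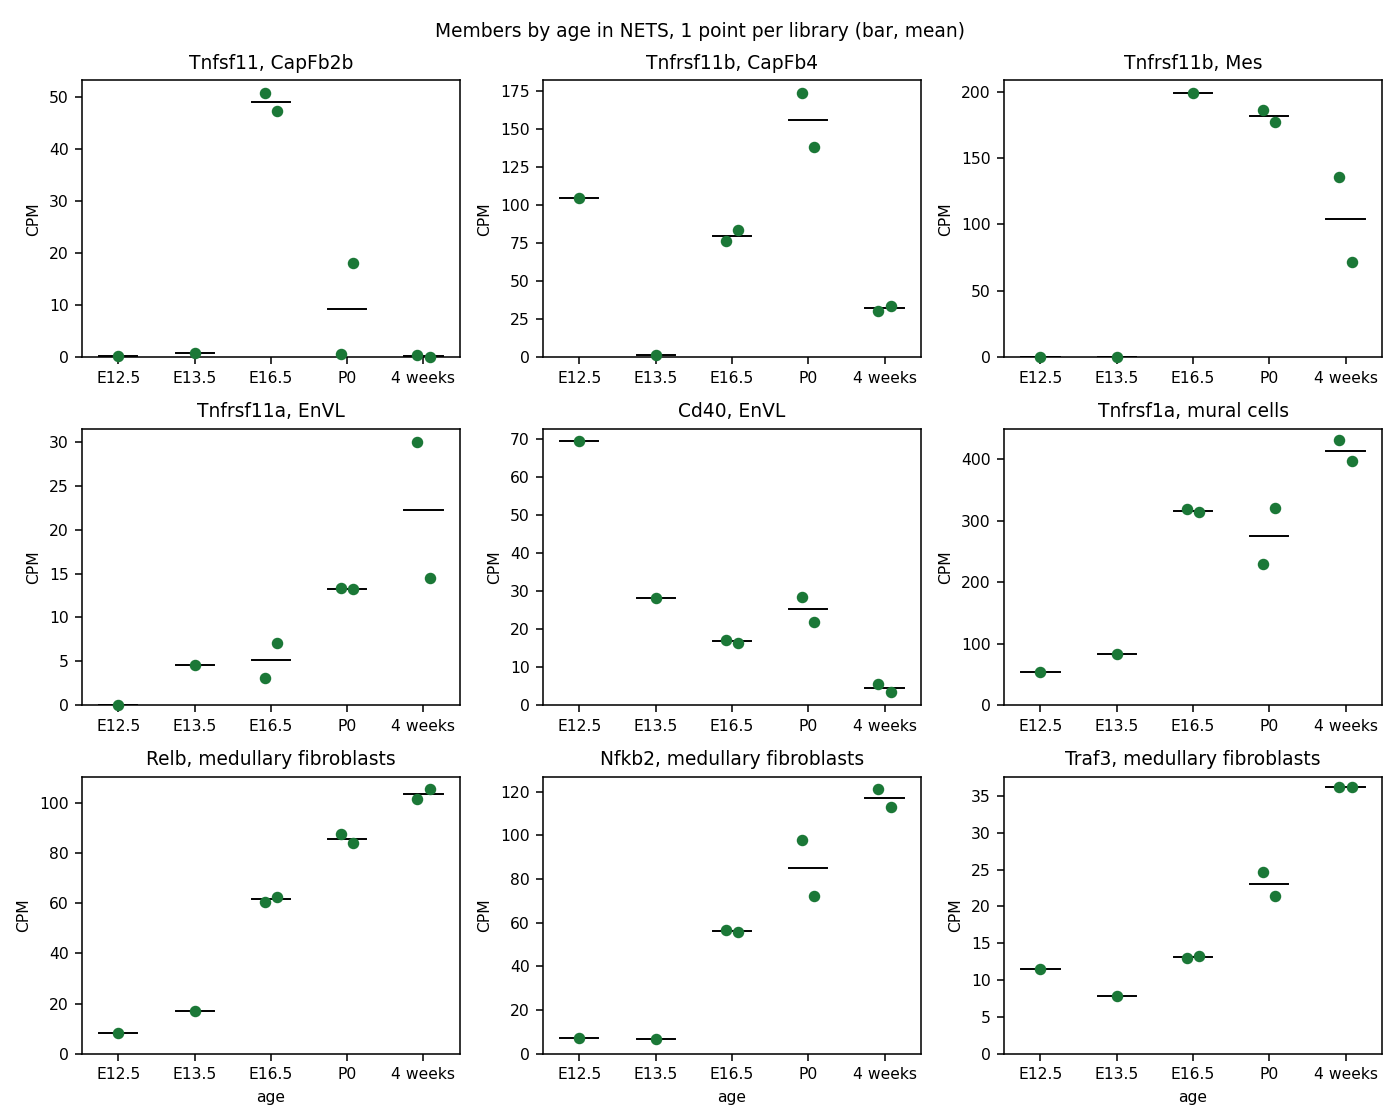
CPM by age for 9 combinations of gene and cell type in NETS, 1 point per library with a bar at the mean, each panel on its own axis from 0. Tnfsf11 in CapFb2b stands at 50.7 and 47.3 CPM at E16.5, Cd40 in EnVL goes from 69.4 CPM at E12.5 to 5.62 and 3.62 at 4 weeks, and Relb, Nfkb2 and Traf3 in medullary fibroblasts are highest at 4 weeks.

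The other pathway genes moved with age in both directions. Between P0 and 4 weeks 16 of 28 tested were higher and 4 lower in medullary fibroblasts (Rel, Nfkbia, Icam1 and Madcam1), 8 of 29 higher and 8 lower in capsular fibroblasts, 7 of 25 higher and 4 lower in endothelium and 8 of 25 higher and 3 lower in mural cells. In the same order 52.7%, 48.3%, 24.2% and 33.7% of all genes passed in either direction. Nfkbie and the adaptor Traf2, which joins TRAF3 in the complex that degrades NIK, were among the higher genes in every class, but in the capsule Traf2 turned sign in CapFb4 (-0.47) and in CapFb2b (-0.061) fitted alone, and Nfkbie in CapFb4 (-0.33). In the genotype comparison 0 of 21 to 26 pathway genes tested in each newborn class passed edgeR's quasi-likelihood test, beside 0.0% to 0.154% of all genes. Over the 7 classes 9 tests had an unadjusted p under 0.05, and DESeq2 called 1.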

How the data were processed

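Sorted bulk libraries, an age series of single-cell NETS libraries and newborn single-cell libraries of both genotypes (98 samples) were analysed. The authors deposited raw gene counts for all 3, as reads per gene in bulk and UMI counts per cell with subtype labels. Per the labels, Cell Ranger 3.1.0, STAR 2.5.3a and HTSeq were used with the builds mm10 and GRCh38, without roles, and the strand setting of the counting is not given in the sources used here. According to the study's methods, cells were kept with over a set number of genes and few mitochondrial UMIs, and doublets and contaminating clusters had been removed before deposit. No cell filter or doublet caller was added here.

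Bulk libraries under 1000000 gene counts were left out, and the rest were fitted in 1 model with a term per group. Rows that name no gene held 7.81% to 16.6% of counts and were not used. Single-cell UMI counts were summed per library and cell class (at least 20 cells per library). Tests were edgeR 4.0.16 quasi-likelihood tests in R 4.3.3 (filterByExpr, TMM scaling, Benjamini-Hochberg over all genes tested, threshold 0.05), two-sided. Alternatives were DESeq2 1.42.0, RLE scaling, no filter, all libraries kept, the label prefix, a replicate block, fits of the compared groups only, and leaving out replicates. Fits of mTEC or cTEC alone and of single subtypes were chosen after seeing the data. The minimum of cells was not applied to single subtypes, and CapFb4 in the age series had 6 cells at E12.5. The scripts were tested on simulated data with known changes.

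The 9 genes and the pathway lists were chosen with earlier results of these data known. The rule for named genes took the 9 genes in every comparison (counted in each, and named in the text where they passed or a value bears on the result), pathway genes by list counts and those that pass, and for each of the 9 the 3 genes of highest correlation over bulk groups (pseudocount 1 CPM). Promoter sequences are from RefSeq on GRCm38.p6. Of 39179 bulk identifiers 37607 matched a symbol, and the unmatched ones held 0.412% of counts.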

Additional observations from a re-analysis of the deposited data

Results flagged for a closer look

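Of 118 groups of 5 or 6 bulk libraries tested for a library that stands apart from the rest of its group (by Dixon's criterion), 14 had one. Chance meets this criterion in about 1 in 20 groups of normally distributed values. That rate does not hold for groups with most libraries at 0, so the 14 cannot be set against it. Among groups with sizeable levels, Cd40 in cTEC at P0 had 148.8 CPM in replicate 6 against 116 in the next library, Cd40 in gp38+CD26- cells at 4 weeks 31.03 against 17.9, Ltbr in gp38+CD26- cells at 4 weeks 133 against 94.5, and Nfkb2 in cTEC at 4 weeks 137.01 against 97.7. The other 10 were low-count genes in which 1 library carried most reads. For Tnfrsf11a these were 0.290 CPM in Ly51+gp38- at P0, 1.84 in gp38+CD26+ at P0, 6.75 in gp38+CD26+ at 4 weeks, 8.13 in gp38+CD26- at P0 and 2.20 in gp38+CD26- at 4 weeks. For Tnfsf11 they were 6.06 CPM in Ly51+gp38- at P0, 15.8 in gp38+CD26- at P0, 1.74 in gp38+CD26- at 4 weeks and 20.1 in mTEC at 4 weeks, and for Tnfrsf11b 2.33 CPM in cTEC at P0.

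The change from P0 to 4 weeks differed between TEC and NETS for Nfkb2 by -1.30 (log2), and between mTEC and cTEC for Tnfrsf11b by -5.31, both by a test of the difference itself.

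The bulk library left out for depth, labelled gp38+CD26+ at 4 weeks, has cTEC markers that go against its label, so its counts cannot be read as those of capsular fibroblasts. It held 8 Cd40 counts, 4 Tnfrsf11b counts and 4 Nfkb2 counts of 25702.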

How the results depend on the processing

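Of the alternatives for single members, 1071 in bulk kept their direction and side of the threshold, 65 lost a call, 20 gained one and 3 turned sign. In the age series these numbers were 654, 39, 14 and 3, and in the newborn data 480, 1, 1 and 0. Tnfsf11 had a median of 0 CPM in every bulk NETS group, so its values there rest on few counts, and fits within a prefix have at most 3 libraries per group.

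The number of the 9 members called moved most when fewer libraries or other groups were fitted. With cTEC alone in place of both TEC it was 5 in place of 9 at P0 and 3 in place of 7 at 4 weeks. With TXCK or DFCK libraries only it was 3 and 3 in place of 6 for mTEC against cTEC at P0, 3 and 3 in place of 7 at 4 weeks, and 1 and 1 in place of 4 for mTEChi against mTEClo. For the age comparisons TXCK libraries gave 0 in cTEC, CD31+ and Ly51+gp38- and 2 in gp38+CD26+, and DFCK libraries 0 in CD31+ and gp38+CD26+ and 1 in Ly51+gp38-. Fits of only the groups compared gave 3 in cTEC, 0 in CD31+ (Tnfrsf11b not tested), 0 in Ly51+gp38- (Tnfrsf11a and Tnfrsf11b not tested), 3 in gp38+CD26+ and 2 in gp38+CD26-, and gp38+CD26+ gave 0 without a filter. The age change in TEC minus NETS gave 2 in place of 1 by DESeq2, with all libraries kept or with the replicate block, and 0 in TXCK libraries. The age change in mTEC minus cTEC gave 0 within either prefix. CapFb4 alone gave 4 in place of 8 over the ages (Cd40 and Tnfsf11 not tested), the capsule without a filter 5 in place of 3 between P0 and 4 weeks, the newborn capsule without CapFb4 0 in place of 1, and newborn medullary TEC without a filter 1 in place of 0. The subtype with the highest level stayed the same for 5 of 9 genes when age series UMIs were pooled over libraries. The causes were not tested.

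Only values with a call in at least 1 of the 2 fits are listed here. Those that turned sign with cTEC alone were, at P0, Tnfrsf11b -2.12, Ltb -1.05, Nfkbia -0.14 and Madcam1 -1.41, and at 4 weeks Tnfrsf11a -0.65, Birc3 -0.74, Nfkbia -0.40 and Ccl19 -0.92. Tnfrsf1a between mTEChi and mTEClo was 0.21 in TXCK libraries. Between P0 and 4 weeks in the capsule, CapFb4 alone gave Nfkb2 -0.65, Traf3 -0.10, Traf2 -0.47, Traf5 -0.78 and Nfkbie -0.33, and CapFb2b alone gave Traf2 -0.061, Map3k14 0.026 and Ccl19 -2.61. Mural Tnfrsf11b was 1.76 without P0 replicate 1 and -2.49 without P0 replicate 2.

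Leaving out 1 library at a time, the members called ranged from 7 to 7 for TEC against NETS at 4 weeks, 0 to 1 for gp38+CD26+ with age, 1 to 2 for the age change in TEC minus NETS, 8 to 8 over ages and 2 to 7 between P0 and 4 weeks in capsular fibroblasts, 7 to 8 and 4 to 6 in medullary fibroblasts, 6 to 8 and 2 to 4 in endothelium, 5 to 7 and 1 to 3 in mural cells, 0 to 1 in newborn capsular fibroblasts and 0 to 0 in the other newborn classes. The 7 in the capsule came without P0 replicate 1, when Ltbr (-0.45), Tnfrsf1a (-0.31), Tnfsf11 (-2.23) and Relb (-0.42) passed as well.

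Whether a shared replicate number pairs samples is not established: in bulk such libraries of 1 age also share a label prefix, and their deviations correlated by 0.005 to 0.085 on average, positive in all 12 sets but not over 0.1 in every pair, and by -0.499 to 0.146 in single cells. With the replicate block, Tnfrsf1a between mTEChi and mTEClo was lost (-1.12, adjusted p = 0.054), Relb passed in the age change in TEC minus NETS (-1.28, adjusted p = 0.036), Ltbr passed between P0 and 4 weeks in the capsule (-0.29, adjusted p = 0.0458), Traf3 over the ages in mural cells was lost (adjusted p = 0.0518), and newborn capsular Tnfrsf11b was -2.20 (adjusted p = 2.64e-06, edgeR's quasi-likelihood test in each case).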
